A study of Mus musculus with 2 samples.

Results

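The basophil and mast cell genes are *Mcpt8*, *Cpa3*, *Mcpt1*, *Mcpt2* and *Tpsab1*, which encode granule proteases, *Fcer1a* and *Ms4a2*, which encode chains of the high-affinity IgE receptor, *Cd200r3*, which encodes an activating surface receptor, and *Gata2*, which encodes a transcription factor of both lineages. These 9 of the 31053 genes in the files were chosen by symbol with earlier results of the same data known, in which *Mcpt8* led a cluster that held *Il4* UMIs. Their own levels are therefore a description and support nothing.

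Basophils are short-lived granulocytes of the blood, and mast cells mature and stay in tissues. Both bind IgE through the receptor that *Fcer1a* and *Ms4a2* encode, and its crosslinking releases histamine and proteases and induces cytokines, IL-4 among them. In mice with lupus-like disease, basophils have been linked to autoantibody production, and mast cells have been described in inflamed kidneys.

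The study made droplet libraries of single kidney cells from MRL-*lpr* mice, a strain in which the *lpr* allele disables *Fas* and lupus-like nephritis develops with age. Leukocytes of pooled kidneys were concentrated by density gradient centrifugation and then with an enrichment kit for innate lymphoid cells (ILCs), so the cell shares are not those of the organ. The labels give 2 libraries, 1 old and 1 young, both of genotype MRL-lpr, and do not say how many animals were pooled. There was thus no replicate check, and age, library and pool cannot be told apart. The methods of the study state female mice, yet UMIs (unique molecular identifiers, counted molecules) of Y-linked genes without *Xist* were found in 5807 young and 4151 old cells. Cells with *Xist* and without Y-linked UMIs numbered 1667 and 2982, so each library held both kinds.

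After cells with fewer than 200 genes or over 20% mitochondrial UMIs were removed, 11429 young cells with 145647185 UMIs and 10232 old cells with 119218130 UMIs were kept. The labelled tissue could be checked against markers of the proximal tubule (PT): PT-like clusters held 53.8% of young and 34.3% of old cells. Of the kept barcodes, 26 occurred in both libraries, and none of them was a cell with UMIs of 3 or more of the genes described here. A level in CPM is a gene's UMIs divided by all UMIs of the same cells, times 1000000, and has an exact Poisson 95% interval. Shares of cells or UMIs have exact Clopper-Pearson 95% intervals. Where a gene had 0 UMIs, a limit of 3 counts is given. Counting error is all that these intervals and limits cover.

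The gene positions are those of GENCODE on GRCm38, and each symbol matched 1 gene in the files. *Mcpt8* (ENSMUSG00000022157; chromosome 14, 56082166 to 56085273) lies in the chymase locus with *Mcpt1* (ENSMUSG00000022227; 56017971 to 56020384) and *Mcpt2* (ENSMUSG00000022226; 56042041 to 56044642). The stretch of 320.81 kb from *Cma1* to *Gzmb* holds, among other genes, also *Mcpt9*, *Mcpt4* and *Ctsg*. *Tpsab1* (ENSMUSG00000024173; chromosome 17, 25343245 to 25345562) lies near *Tpsb2* and *Prss34*. The others lie on other chromosomes, namely *Cpa3* (ENSMUSG00000001865; chromosome 3, 20215620 to 20242181), *Ms4a2* (ENSMUSG00000024680; chromosome 19, 11615523 to 11623719), *Fcer1a* (ENSMUSG00000005339; chromosome 1, 173221284 to 173227214), *Cd200r3* (ENSMUSG00000036172; chromosome 16, 44943678 to 44981380) and *Gata2* (ENSMUSG00000015053; chromosome 6, 88193891 to 88207032). Since related genes could share reads, windows of 90 bases in the last 500 bases of the transcripts were compared for pairs of proteases and for *Cd200r3* with *Cd200r1* and *Cd200r4*, and 0 were shared in any pair examined.

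Of the 9 genes, 8 had UMIs in kept young cells and 9 in kept old cells. At least 10 UMIs in the library, the minimum for the fold comparison below, were reached by 6 genes in the young and 9 in the old library; *Mcpt1*, *Mcpt2* and *Tpsab1* fell short in the young library.

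Among the proteases, *Mcpt8*, which marks basophils in the mouse, was found in 22 young cells with 404 UMIs (2.77 CPM; 2.51–3.06) and in 15 old cells with 1116 UMIs (9.36 CPM; 8.82–9.93). A single old cell held 451 of these UMIs, 40.4% of the total, and without it the old level was 5.58 CPM. Without the young cell with the most, which held 97, the young level was 2.11 CPM. *Cpa3*, the carboxypeptidase of mast cell granules, was spread far more widely, over 496 young cells with 1607 UMIs (11.0 CPM; 10.5–11.6) and 53 old cells with 456 UMIs (3.82 CPM; 3.48–4.19).

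*Mcpt1*, a chymase of mucosal mast cells, had 0 UMIs in the young library, which allows up to 0.0206 CPM, and 665 in the old (5.58 CPM; 5.16–6.02). Of those, 663 lay in 1 cell, and without that cell the level was 0.0168 CPM. *Mcpt2*, another mucosal chymase, had 4 UMIs in 1 young cell and 390 in the old library, of which 389 lay in the same old cell. *Tpsab1*, a tryptase, had 2 UMIs in 2 young cells and 118 UMIs, all in that old cell. The library totals of these 3 genes were thus set by 1 old cell.

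For the IgE receptor, *Fcer1a* had 41 young UMIs in 24 cells (0.282 CPM; 0.202–0.382) and 73 old UMIs in 13 cells (0.612 CPM; 0.480–0.770). *Ms4a2*, which encodes its signal-amplifying beta chain, had 75 young UMIs in 28 cells (0.515 CPM; 0.405–0.645) and 92 old UMIs in 14 cells (0.772 CPM; 0.622–0.946). The receptor gene *Cd200r3* had 116 young UMIs in 54 cells (0.796 CPM; 0.658–0.955) and 136 old UMIs in 39 cells (1.14 CPM; 0.957–1.35). *Gata2* had 474 young UMIs in 172 cells (3.25 CPM; 2.97–3.56) and 342 old UMIs in 62 cells (2.87 CPM; 2.57–3.19). Without the old cell with the most *Fcer1a*, its old level was 0.470 CPM.

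The genes fell together in few cells. Of the young cells, 10746 had none of the 9 genes, 639 had 1, 22 had 2 and 22 had 3 or more; of the old cells, 10111 had none, 88 had 1, 21 had 2 and 12 had 3 or more. A cell with UMIs of at least 3 of the 9 genes is called a carrier cell here. The 22 young carriers made up 0.192% (0.121–0.291%) of the kept cells, and the 12 old carriers 0.117% (0.0606–0.205%), so a difference in share between the libraries was not detectable at this depth.

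**Figure D1:**
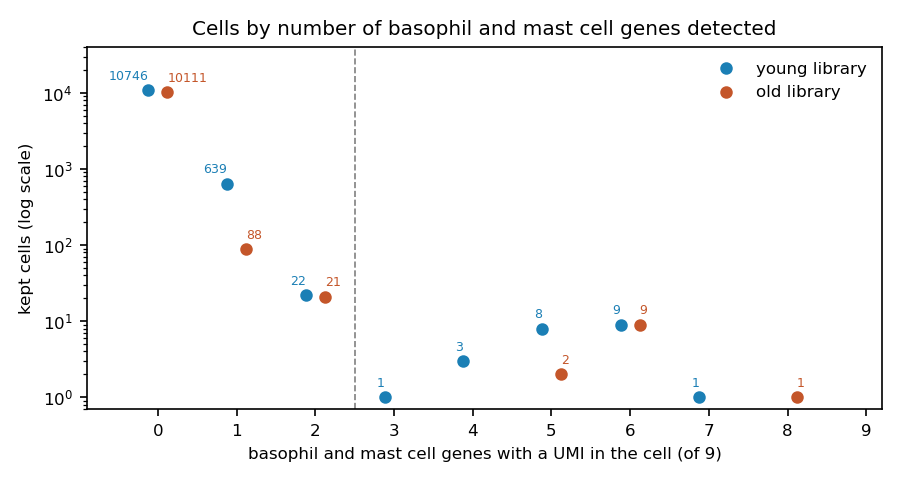
Number of kept cells (log scale) by how many of the 9 basophil and mast cell genes had a UMI in the cell, for the young and old libraries, with the counts printed and the carrier threshold dashed. The old library had no cell with 3 or 4 of the genes, and its carriers had 5 to 8.

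The values on either side of the threshold were compared. Cells with 2 of the genes had a median of 4 (2–9) UMIs of them in the young and 6 (2–18) in the old library. The young carrier with the fewest genes had 3 of them with 14 UMIs, and the old carriers with the fewest, 5 genes, had 124 and 125 UMIs. Over all carriers the fewest UMIs of the 9 genes in a cell were 9 in the young library, as many as in the highest 2-gene cell, and 41 in the old. The 2-gene cells also held other pairs: *Cd200r3* with *Gata2* in 8 young and 20 old cells of an epithelial-like cluster, and *Cpa3* with *Fcer1a* (6 cells) or *Cd200r3* (5 cells) in young ILC2-like cells. In the old library 1 such cell, in a macrophage or monocyte-like cluster, had *Mcpt8* with *Cpa3*.

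Carriers held 950 of the 2723 UMIs of the 9 genes in the young library (34.9%) and 3061 of 3388 in the old (90.3%). Their median depth was 4939 UMIs in the young and 9020.5 in the old library, against 7881 and 6933 over all kept cells. Their median mitochondrial share, 1.64% and 1.42%, lay below that of all kept cells, 3.60% and 2.96%. Scrublet, which scores likely doublets, called 0 carriers in either library. Of the carriers, 8 young and 7 old ones had Y-linked UMIs without *Xist*, 4 and 3 had *Xist* alone, and 9 and 1 had neither. In each library 1 carrier had both, as had 2.74% of all kept young and 4.08% of all kept old cells. The young one had 25823 UMIs, 339 of them of PT genes, and the old one was the cell with 451 *Mcpt8* UMIs. Beyond the Scrublet call, whether they were doublets was not tested.

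How tightly a gene kept to carriers differed. For *Mcpt8*, 21 of its 22 young cells and 11 of its 15 old cells were carriers, with 403 of 404 and 1108 of 1116 UMIs. For *Ms4a2* these were 20 of 28 and 12 of 14 cells, and for *Fcer1a* 11 of 24 and 12 of 13. By UMIs, 82.7% (72.2–90.4%) of young and 95.7% (89.2–98.8%) of old *Ms4a2* and 65.9% (49.4–79.9%) and 98.6% (92.6–99.97%) of *Fcer1a* lay in carriers, against 99.8% (98.6–99.99%) and 99.3% (98.6–99.7%) of *Mcpt8*. *Cpa3* was alone among the 9 genes in 465 of its 496 young cells and 40 of its 53 old cells. *Gata2* was alone in 140 of 172 and 30 of 62. By UMIs, 8.96% (7.61–10.5%) of young and 77.2% (73.1–81.0%) of old *Cpa3* lay in carriers, against 48.5% (43.9–53.1%) and 55.8% (50.4–61.2%) for *Gata2*.

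Pairs were read from the *Mcpt8* cells. Of the 22 young *Mcpt8* cells, 21 had *Gata2*, 21 had *Cd200r3*, 20 had *Ms4a2*, 18 had *Cpa3* and 11 had *Fcer1a*. Of the 15 old ones, 12 had *Cpa3*, 11 each had *Gata2*, *Ms4a2* and *Fcer1a*, and 9 had *Cd200r3*. The absence of a gene from a cell at these depths does not show that the cell lacked its RNA.

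**Figure D2:**
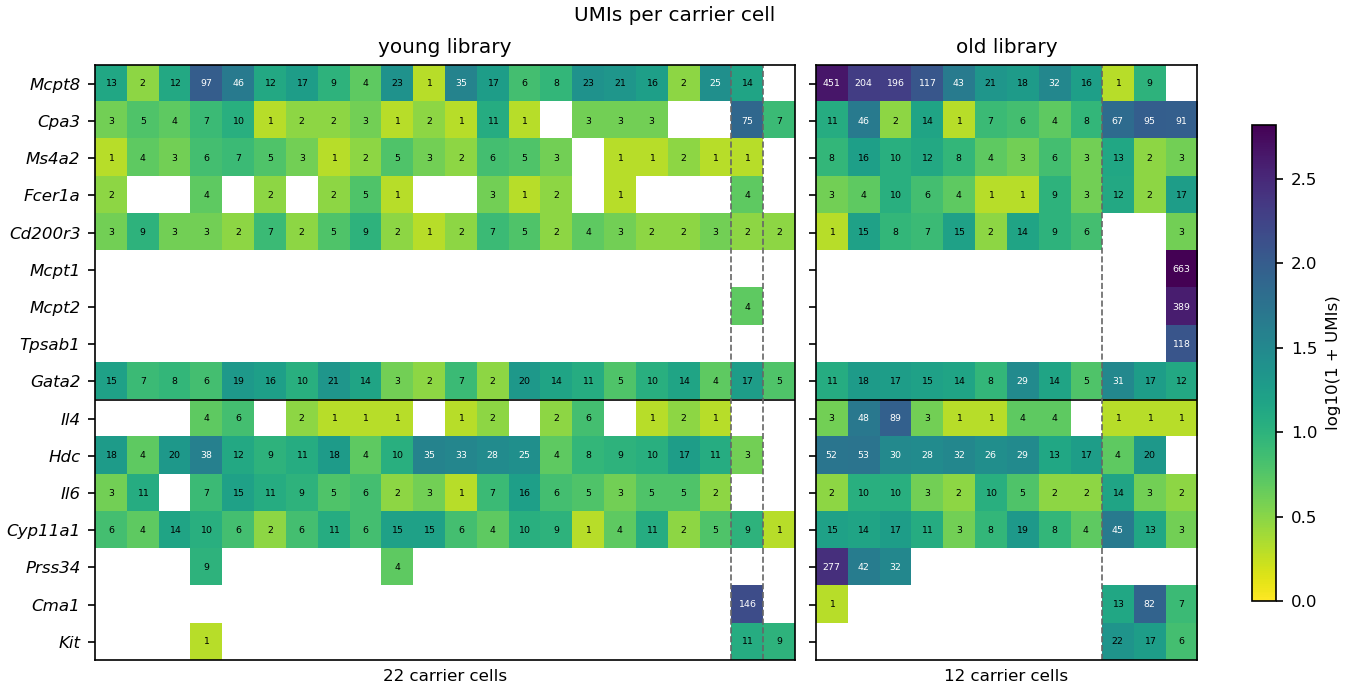
UMIs of the 9 genes (above the line) and of 7 others in each carrier cell of the young and old libraries, coloured by log10 of 1 + UMIs and left white at 0. Dashed lines part, from left to right, the *Mcpt8* cells, the cells with at least 10 protease UMIs and, in the young library, the cell with neither; *Mcpt1* and *Tpsab1* stand in 1 old column, and *Mcpt2* in the same column and, with 4 UMIs, in 1 young one.

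Clusters were computed with the 9 genes and *Il4* left out of the clustering features. Most carriers nevertheless fell together: 18 of 22 young and 9 of 12 old carriers lay in neutrophil-like cluster 17. The other young carriers lay in macrophage or monocyte-like cluster 12 (2 cells), other epithelial-like cluster 18 (1 cell) and PT-like cluster 15 (1 cell). The other old carriers lay in ILC2-like cluster 0 (2 cells) and T-like cluster 21 (1 cell). In each clustering alternative tried, 18 young and 9 old carriers again lay in a neutrophil-like cluster.

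The markers that named that cluster came from its other cells, 153 young and 150 old. The 9 neutrophil marker genes summed to 82302 CPM in these cells of the young library and to 169020 in those of the old, led by *S100a9* with 22393 and 62977 UMIs. In all carriers of a library together they had 16 and 20 UMIs (86.7 and 140.6 CPM), of which 15 and 17 were *Cxcr2*, with *S100a8*, *Retnlg*, *Csf3r*, *Mmp8*, *Mmp9* and *Ly6g* at 0 in both. *S100a8*, which encodes a calprotectin subunit of neutrophils, showed it within the cluster: 0 UMIs in the 18 young carriers (up to 31.2 CPM) against 12597 in the other cells (26529 CPM), and 0 in the 9 old carriers (up to 37.3 CPM) against 42698 (62855 CPM). The carriers in the neutrophil-like cluster thus lacked its defining markers, and that name does not describe them.

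The basophil and mast cell genes themselves split the cluster into carriers and other cells, so their levels in it are a description. In the other cells of cluster 17 each of the 9 had 0 UMIs, a limit of 6.32 CPM young and 4.42 CPM old, except *Mcpt8* with 5 UMIs in 1 old cell. In the carriers of the cluster *Mcpt8* reached 3890 (3505–4305) CPM young and 13643 (12848–14475) CPM old. *Hdc*, whose enzyme makes histamine, did not separate the cells as sharply, with 3141 CPM in young carriers against 1015 in the other cells and 3479 against 1237 in the old. The chemokine gene *Cxcl2* was not higher in carriers, with 3182 against 3250 CPM in the young and 2609 against 7020 in the old. *Il6*, *Ccl3* and *Csf1* were higher in the carriers of the cluster in both libraries. Median depths were 4859 and 7484 UMIs in the carriers and 2317 and 3429.5 UMIs in the other cells, and the part of depth in the comparison was not tested.

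The label was checked with marker lists over all carriers. All 10 genes of the basophil list were detected in both libraries, at 7339 CPM in young and 16763 in old carriers, with *Mcpt8* the most abundant (403 and 1108 UMIs). Of the 11 genes of the mast cell list, 5 were detected in the young (1777 CPM, led by *Cma1*) and 9 in the old (12474 CPM, led by *Mcpt1*), with *Mrgprb1* and *Mrgprb2* at 0 in both. A single cell held 245 of the 328 young and another 1355 of the 1774 old UMIs of the mast cell list. These lists hold 5 and 4 of the 9 genes, so this repeats in part what defined a carrier. For eosinophils 3 of 8 genes were detected in each library (36 and 5 UMIs, led by *Ear2* and *Epx*), with *Prg2*, *Ear1*, *Ear6* and *Il5ra* at 0.

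Markers of other cells were also present. PT genes gave 849 UMIs in young carriers (4599 CPM, 9 of 9 genes, led by *Kap*) and 82 in the old (577 CPM, 6 of 9 genes, with *Lrp2*, *Slc5a2* and *Cubn* at 0). A single young carrier held 339 of the young UMIs. ILC2 genes gave 31 and 19 UMIs with no UMI of *Il2ra* or *Calca*, T genes 41 and 5, NK or ILC1 genes 23 and 39, and macrophage or monocyte genes 81 and 14 with *C1qa*, *C1qb* and *C1qc* at 0. Progenitor genes gave 50 and 26 UMIs, dendritic genes 46 and 0, plasmacytoid dendritic genes 35 and 39, plasma cell genes 17 and 13, and B cell genes 2 and 3. Other epithelial genes gave 35 and 22 UMIs, endothelial genes 9 and 12, erythrocyte genes 4 and 0, and stromal genes 1 and 1. Single cells held much of several lists: in the young library 46 of the 46 dendritic, 37 of the 50 progenitor, 32 of the 41 T, 22 of the 23 NK or ILC1, 31 of the 36 eosinophil and 52 of the 81 macrophage or monocyte UMIs, and in the old 31 of the 39 NK or ILC1 and 13 of the 26 progenitor UMIs. The part of these UMIs in the carriers' profile was not tested.

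The carriers were not alike in their proteases. A rule chosen after the values were seen put cells with at least 10 UMIs over 7 mast cell protease genes in a protease subgroup and the remaining cells with *Mcpt8* in an *Mcpt8* subgroup. The *Mcpt8* subgroup held 20 young and 9 old cells, the protease subgroup 1 young and 3 old cells, and 1 young cell was in neither.

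In the *Mcpt8* subgroup, *Mcpt8* stood at 2777 (2508–3067) CPM in young and 13643 (12848–14475) in old cells. Per cell its UMIs ran from 1 through a median of 14.5 to 97 in the young and from 16 through 43 to 451 in the old, so the ranges overlapped. *Cpa3* had 443 (339–567) young and 1230.1 (999.8–1498) old CPM, in 17 of 20 and 9 of 9 cells. *Gata2* had 1485 (1290–1701) and 1628 (1361–1932) CPM and was found in every cell. *Kit*, the stem cell factor receptor that mast cells need, had 1 UMI in the young and 0 in the old subgroup, and *Cma1* had 0 and 1. *Hdc* and *Cyp11a1* had UMIs in all 20 young and all 9 old cells.

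*Prss34*, which encodes a basophil protease, was in fewer cells. It had 9 and 4 UMIs in 2 young carriers and 277, 42 and 32 in 3 old carriers, and in no other kept cell of either library. Against the floor of 3 counts over the other cells of a library, the carriers were at least 3414-fold higher in the young and at least 97964-fold higher in the old.

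The protease subgroup was made of single cells with different proteases. The young cell (8072 UMIs) had 146 UMIs of *Cma1*, a chymase, 75 of *Cpa3*, 49 of *Gzmb*, 14 of *Mcpt8* and 11 of *Kit*. An old cell with 9106 UMIs had 663 of *Mcpt1*, 389 of *Mcpt2*, 118 of *Tpsab1*, 91 of *Cpa3*, 81 of *Mcpt9*, 47 of *Tpsb2* and 31 of *Mcpt4*. It had 8 of the 9 genes, 0 UMIs of *Mcpt8* and of *Hdc*, and 14.2% of its UMIs came from the 9 genes. The mast cell proteases of the rule were thus high here and at or near 0 in the *Mcpt8* subgroup. That contrast follows from the rule, and nothing is read from it.

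Of the other old cells of the subgroup, the first, with 9265 UMIs, had 95 UMIs of *Cpa3*, 94 of *Gzmb*, 82 of *Cma1* and 17 of *Kit*. The next, with 43364 UMIs, had 683 of *Gzmb*, 67 of *Cpa3*, 22 of *Kit* and 13 of *Cma1*, beside 41 UMIs of the proliferation gene *Mki67*. The young cell in neither subgroup (36474 UMIs) had *Cpa3*, *Gata2* and *Cd200r3* with 7, 5 and 2 UMIs, 9 UMIs of *Kit*, 31 of *Mki67* and 180 of PT genes. The 3 carriers of the libraries over 20000 UMIs included these last 2 cells, so their depth stood far above the carriers' median.

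*Il4* UMIs do not enter the rule for a carrier. The 9 genes were, however, chosen with *Il4* UMIs in a cluster led by *Mcpt8* already known, so the values of *Il4* are a description and no independent readout. Carriers held 30 of the 183 *Il4* UMIs of the young library (16.4%; 11.3–22.6%) and 156 of the 209 of the old (74.6%; 68.2–80.4%). They held 0.127% and 0.119% of all UMIs. *Il4* was detected in 13 of 22 young and 11 of 12 old carriers.

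Young carriers had 162 (110–232) CPM of it, and the other young cells 1.05 (0.892–1.23), from 153 UMIs in 114 cells. Old carriers had 1097 (932–1283) CPM, and the other old cells 0.445 (0.333–0.582), from 53 UMIs in 45 cells. The log2 ratio of carriers over other cells was 7.27 (6.66–7.84) in the young and 11.27 (10.81–11.75) in the old.

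The old value rested on few cells. The highest old carriers had 89, 48, 4 and 4 *Il4* UMIs, and the highest young ones 6, 6 and 4. The 2 highest old cells held 87.8% of the *Il4* UMIs of the old carriers and 65.6% of those of the old library. Without the highest old cell the level fell to 507 CPM and the share to 55.8%. Without the 2 highest, an alternative chosen after the data were seen, the old level was 159.6 CPM and the share 26.4%, and the young values without their 2 highest cells were 103.0 CPM and 10.5%. The other 10 old carriers had 19 *Il4* UMIs and the other 20 young carriers 18. The gap between the libraries was thus narrower without the 2 highest cells of each. The old values were still the higher, but with 19 old and 18 young UMIs and no interval, no difference is read.

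**Figure D3:**
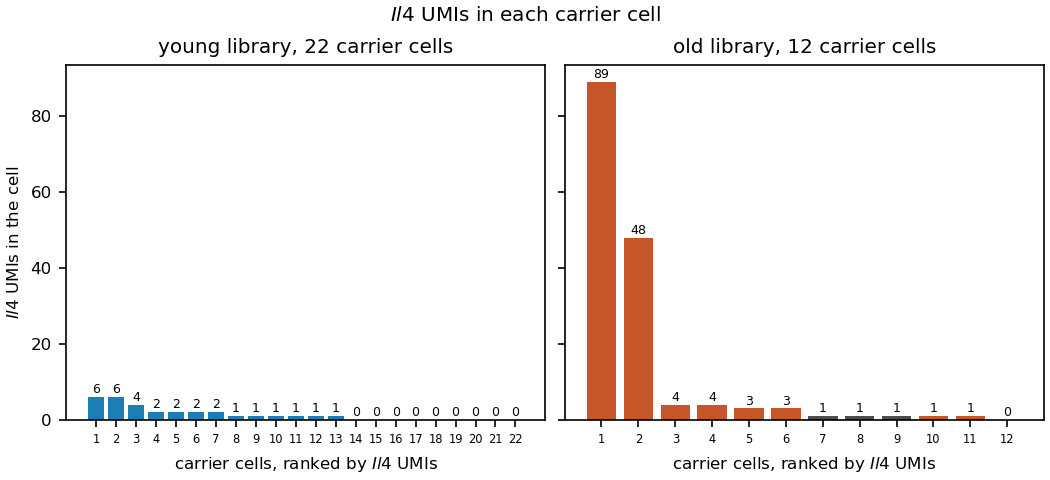
*Il4* UMIs in each carrier cell, ranked within the young and old libraries, with the count over each bar; grey bars are cells of the protease subgroup. The first 2 old cells, with 89 and 48 UMIs, stand apart, and no young carrier had more than 6.

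Both of these old cells belonged to the *Mcpt8* subgroup. They had 10088 and 13061 UMIs, with 196 and 204 of *Mcpt8* and 32 and 42 of *Prss34*. The cell with 451 *Mcpt8* UMIs and 277 of *Prss34*, by contrast, had 3 of *Il4*. The highest count in a cell that was no carrier was 9 in the young and 4 in the old library. By subgroup, *Il4* had 214 (144–306) young and 1901 (1612–2227) old CPM in the *Mcpt8* cells. The young protease cell had 0 *Il4* UMIs, which allows up to 372 CPM, and the 3 old protease cells had 1 each.

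Depth and free RNA were set beside these shares. PT-like cells, which should lack *Il4*, had it in 3 of 6152 young cells (0.0488%, median depth 15487.5 UMIs) and 0 of 3506 old cells (up to 0.0856%, median 15781 UMIs). Cells were then thinned to 1000 UMIs, and those with fewer were left out, 646 young and 348 old cells, none of them a carrier. *Il4* was found in 5 of 22 young carriers (22.7%; 7.82–45.4%) and 5 of 12 old carriers (41.7%; 15.2–72.3%). Thinned ILC2-like cells had it in 0.837% and 0.752%, and thinned PT-like cells in 0 of 6112 and 0 of 3500, which allows up to 0.0491% and 0.0857%. Carriers' shares were above those of both classes at equal depth.

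Carriers were then compared with all other kept cells gene by gene. A gene was past the fold when its CPM ratio had a log2 of at least 2, with 0.5 UMIs added to each sum. Of the genes described here, 6 of the 6 tested in the young and 9 of the 9 tested in the old library were past it. This follows from how carriers were chosen and nothing is read from it. Over all genes, 28.7% of the 17118 tested in the young library, 27.9% of the 17353 in the old and 19.6% of the 16512 tested in both were past it. Most of these, 3372 young and 3678 old genes, had 0 UMIs in carriers and passed only because the added 0.5 weighs more in the smaller sum. With at least 4 carrier UMIs also required, a rule chosen after the data were seen, 804 genes (4.7%) were past it in the young, 590 (3.4%) in the old and 366 (2.22%) in both. All the tested members kept their place under that rule.

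Their ratios give the size of the contrast. *Mcpt8* had 2183 (1975–2407) CPM in young carriers, with 1 UMI in all other cells, a log2 ratio of 18.28 (15.79–23.58). In the old library it had 7791 (7339–8264) CPM in carriers and 8 UMIs in 4 other cells, a log2 ratio of 16.82 (15.84–18.04). *Cpa3* had 780.0 (658–918) CPM in young carriers against 10.1 (9.55–10.6) in other cells, a log2 ratio of 6.28 (6.02–6.52). In the old library its 2475 (2223–2748) CPM stood against 0.873 (0.714–1.06), a log2 ratio of 11.47 (11.15–11.80). *Cpa3* thus had the lowest ratio of the tested genes in the young library.

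The receptor chains had log2 ratios of 10.57 (9.59–11.61) in the young and 15.88 (13.36–21.20) in the old library for *Fcer1a*, and 11.88 (11.00–12.86) and 14.17 (12.76–16.08) for *Ms4a2*. For *Cd200r3* they were 10.77 (10.19–11.38) and 10.22 (9.71–10.74), and for *Gata2* 9.54 (9.27–9.80) and 10.05 (9.73–10.37). *Mcpt1* and *Mcpt2* had ratios of 18.08 (16.22–21.13) and 18.31 (15.83–23.62) in the old library, each from a single carrier. *Tpsab1* was at least 32934-fold higher in old carriers than in the other cells, none of which had a UMI. Young *Mcpt2*, under the minimum, had no UMI outside its 1 carrier. In the young library *Tpsab1* had 0 UMIs in carriers, which allows up to 16.2 CPM.

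The median log2 ratio, with the added 0.5, was 10.65 over the 6 young and 15.30 over the 9 old members tested, and 10.67 and 15.01 with genes without UMIs in other cells at their bound. Over all genes tested it was 0.63 and 0.56. Since the members define the carriers, nothing is read from this, and *Mcpt1*, *Mcpt2* and *Tpsab1* were tested in the old library only through the UMIs of 1 carrier.

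Lists of related genes were read the same way, with counts under the rule of at least 4 carrier UMIs in brackets. Carriers were again set against all other kept cells, not against the other cells of their own cluster alone. Of 24 mediators, 21 (17) were past the fold in the young library, 20 (19) in the old and 19 (17) in both, with median log2 ratios of 5.99 and 5.59. These counts and medians include *Il4*, which was past the fold in both libraries and is no independent readout. Of the receptor list, 18 (16) of 22, 14 (13) of 21 and 13 (12) of 21 were past it, with medians of 4.31 and 3.29. Of the IgE receptor signalling list, 11 (11) of 16 were past it in the young, but 4 (4) of 16 in the old and in both, with medians of 2.13 and 0.94. Of the transcription factors, 7 (5) of 12, 6 (5) of 11 and 4 (3) of 11 were past it, with medians of 2.10 and 2.40. Old *Tal1*, counted here, reached the minimum of 10 UMIs only through the carriers. Nothing is read from its place in the old and joint counts. Of the 9 other granule proteases listed, 5 reached the minimum of 10 UMIs in the young and 7 in the old library, and all of these were past the fold, 4 and 7 of them with at least 4 carrier UMIs. *Prss34* in both libraries, *Ctsg* in the young and *Mcpt4*, *Mcpt9* and *Tpsb2* in the old reached the minimum only through the carriers, so nothing is read from the counts of this list. The share of the old IgE receptor signalling list, 25.0%, was near the 27.9% of all genes under the fold alone, while under the rule of at least 4 carrier UMIs the same 25.0% stood against 3.4% of all genes.

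Among the mediators, *Il6*, a cytokine of many activated cells, had 661 (549–789) CPM in young carriers against 0.103 (0.0577–0.170) in other cells and 457 (353–583) against 0.336 (0.240–0.457) in the old. It was found in 19 of 22 young and all 12 old carriers. *Hdc* had 1771 (1584–1974) CPM against 8.29 (7.83–8.77) in the young and 2138 (1904–2392) against 12.8 (12.2–13.5) in the old. The chemokine gene *Ccl6* had 4647 (4342–4969) and 4711 (4361–5082) CPM in carriers, with log2 ratios of 8.23 (8.12–8.35) and 7.72 (7.59–7.84). The related *Ccl9* had ratios of 7.74 (7.58–7.91) and 6.96 (6.80–7.11), and *Osm*, a cytokine of the IL-6 family, 8.87 (8.68–9.07) and 6.67 (6.44–6.89). *Il6* and *Hdc* were thus dense in carriers of both libraries and not in a few cells alone.

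*Il13*, another type 2 cytokine gene, had 19 UMIs in 7 young carriers (103 CPM; 62.0–161) and 19 in 3 old carriers (134 CPM; 80.4–209), 14 of them in 1 cell. *Areg*, which encodes amphiregulin, had 0 UMIs in carriers of either library, which allows up to 16.2 and 21.1 CPM, against 82.3 (80.8–83.8) and 43.8 (42.6–45.0) CPM in the other cells. Only 10.9% of the other young and 5.31% of the other old cells had a UMI of it, so most had none either.

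In the signalling list, *Fcer1g*, which encodes the receptor's shared gamma chain, had 1462 (1293–1648) CPM in young carriers against 69.3 (67.9–70.6), and 1948 (1725–2191) against 246 (244–249) in the old. *Lat2*, an adaptor of the pathway, had log2 ratios of 5.56 (5.18–5.91) and 5.18 (4.87–5.48). The kinase gene *Btk*, with 8 and 10 carrier UMIs, had ratios of 4.26 (3.04–5.26) and 4.09 (3.02–4.98), and the adaptor gene *Gab2*, with 15 and 7, had 3.67 (2.83–4.40) and 2.85 (1.53–3.90). These 4 were the genes of the list past the fold in both libraries.

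Among the receptors, *Csf2rb*, the shared beta chain for IL-3, IL-5 and GM-CSF, was in all 22 young and all 12 old carriers, with log2 ratios of 6.74 (6.41–7.05) and 5.001 (4.68–5.30). *Csf2rb2*, the IL-3-specific beta chain, had 7.56 (6.94–8.15) and 6.35 (5.85–6.81). *Il3ra*, the alpha chain, had 4.57 (3.90–5.16) and 3.04 (2.08–3.85) from 23 and 12 UMIs. *Lilrb4a*, an inhibitory receptor, had 6.37 (5.90–6.80) and 4.78 (4.29–5.24), and the integrin gene *Itga2*, whose product basophils share with NK cells, had 4.77 (3.85–5.56) and 4.24 (3.23–5.10). The eotaxin receptor gene *Ccr3* had only 3 and 2 carrier UMIs, with ratios of 7.40 (4.96–9.24) and 5.19 (2.10–7.12). *Kit* had 21 and 45 UMIs, in 3 carriers of each library, with ratios of 4.18 (3.48–4.80) and 6.79 (6.31–7.24).

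Among the transcription factors past the fold in both libraries, *Runx1* had log2 ratios of 3.34 (2.86–3.78) and 3.44 (3.06–3.80) and *Cebpa* 2.996 (2.488–3.462) and 3.530 (2.996–4.016). *Tal1*, with 9 and 7 carrier UMIs, had 6.33 (5.16–7.32) and 9.93 (8.13–11.78). With 6 old UMIs in other cells, it reached the minimum of 10 there only through the carriers. Nothing is read from its old ratio. *Cebpe* counted as past the fold with 0 carrier UMIs in both libraries, and is therefore no gene of the carriers. The same held for the tryptase gene *Tpsb2* in the young library, while its 47 old UMIs lay in 1 cell.

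Of the other proteases, *Ctsg*, which encodes cathepsin G, had 13 UMIs in 5 young and 27 in 6 old carriers, with log2 ratios of 11.00 (9.42–12.84) and 10.56 (9.60–11.57). *Cma1* had all of its 146 young carrier UMIs in 1 cell and 82 of 103 old ones in another, and *Gzmb* had 49 of 57 and 683 of 780 in single cells. These ratios, 8.77 (8.47–9.06) and 6.68 (6.37–6.97) for *Cma1* and 4.81 (4.41–5.19) and 5.66 (5.55–5.76) for *Gzmb*, thus describe single cells.

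The genes most like the members in pattern, outside the 5 lists of related genes, were ranked by the lower of the log2 ratios of the 2 libraries, among genes with at least 20 carrier UMIs over both. Since this minimum and that of 10 UMIs per library both count carrier UMIs, the order is a description. *Cyp11a1* and *Grm6* among them also belong to the basophil marker list. *Cyp11a1*, which encodes a steroid-making enzyme of mitochondria, led with 157 UMIs in all 22 young carriers (850.4 CPM; 723–994) and 160 in all 12 old carriers (1125 CPM; 957–1314). The other cells had 18 and 19 UMIs, and the log2 ratios were 12.75 (12.04–13.54) and 12.78 (12.09–13.55). It was found in every carrier, as were no other genes ranked this way.

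*Csrp3*, a muscle LIM protein gene, had 37 UMIs in 15 young carriers and none in other cells, at least 9717-fold higher, and a ratio of 12.20 (10.80–13.92) in the old. *Grm6*, a glutamate receptor gene, had 12.08 (10.81–13.63) in the young and was at least 5024-fold higher in the old, from 18 UMIs in 6 carriers. *Alox15*, a lipoxygenase gene, had 11.39 (9.89–13.18) and 11.78 (10.33–13.54) from 17 and 21 UMIs. *Csrp3*, *Grm6* and *Alox15* had fewer than 10 UMIs in the other cells of either library. They reached the minimum only through the carriers, so nothing is read from their place in the order. The remaining genes had ratios between 6.04 and 9.27: *Rab44* had 9.27 and 8.68, *P2rx1* 8.98 and 9.02, *Hgf* 8.84 and 7.62, *Htr1b* 7.90 and 7.67, *Adora2b* 7.42 and 6.04, and *Ccl17* 6.08 and 6.25. *Ccl17* had 20 of its 21 young carrier UMIs in 1 cell and 1 UMI in the old carriers.

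Outside the carriers, *Cpa3* was mainly a gene of ILC2-like cluster 0. It had 146 (138–154) CPM there in the young library, in 422 of 1722 cells (24.5%; 22.5–26.6%), and 36.4 (29.0–45.2) CPM in the old, in 32 of 412 cells (7.77%; 5.37–10.8%). PT-like cells, which should lack it, had 0.131 CPM in 0.211% of young cells and 0.0151 CPM in 0.0285% of old cells, with median depths of 15487.5 and 15781 UMIs against 5034 and 5397 in ILC2-like cells. The ILC2-like shares were thus above background.

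In the young library the next classes were T-like (7.17 CPM; 4.64–10.6), plasma-like (6.67; 2.45–14.5), B-like (6.04; 2.76–11.5), macrophage or monocyte-like (5.60; 3.55–8.41), other epithelial-like (4.42; 1.91–8.71) and plasmacytoid dendritic-like (2.62; 0.317–9.47). The plasma-like, other epithelial-like and plasmacytoid dendritic-like values came from 1 cell each, and unnamed clusters had 9.81 (7.55–12.5) CPM. Of the 25 UMIs in T-like cells, 23 lay in 6 of the 91 cells of cluster 21 (15.3 CPM; 9.68–22.9), and 2 in 1 cell of cluster 7. The leading genes of cluster 21 were histone genes and *Pimreg*, none of them from the T marker list. Which cells of that cluster were T cells was not tested. Of the 64 UMIs in unnamed clusters, 62 lay in cluster 24, which had 29.7 (22.8–38.1) CPM in 21 of its 92 young cells (22.8%). The leading genes of cluster 24 included *Nmur1*, *Areg* and *Il13*, and also *Mmp16* and *Olfr1259*, which were among those of ILC2-like cluster 0. The marker list that fitted it best was that of PT cells, and it stayed unnamed because it shared leading genes with a cluster of another lineage. The intervals of the named classes overlapped, so these neighbours in the order did not differ beyond counting error, while ILC2-like cells stood above and PT-like cells below. In the old library macrophage or monocyte-like cells (1.25 CPM; 0.623–2.23) and T-like cells (0.600; 0.274–1.14) followed, and the remaining classes had 0 UMIs apart from PT-like cells.

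**Figure D4:**
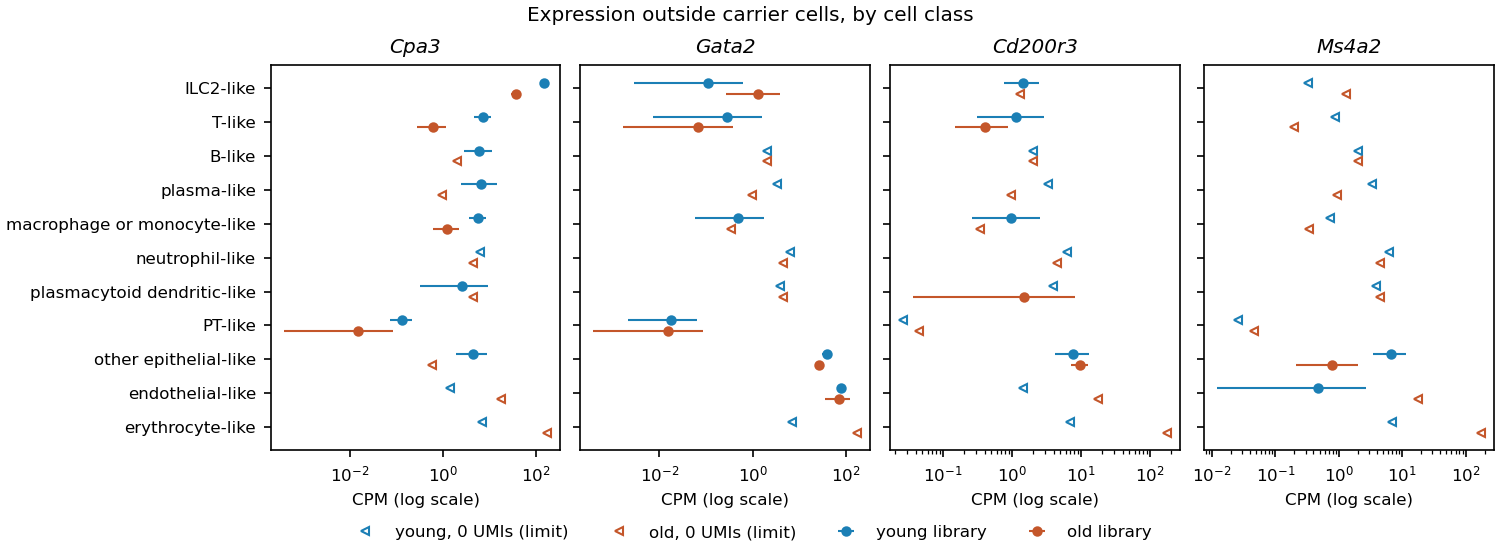
CPM (log scale) of *Cpa3*, *Gata2*, *Cd200r3* and *Ms4a2* by cell class in the young and old libraries, without carrier cells; points are levels with exact Poisson 95% intervals, and open triangles give the limit of 3 counts for a class with 0 UMIs. *Cpa3* was highest in ILC2-like cells, *Gata2* in endothelial-like and other epithelial-like cells.

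*Cpa3* in ILC2-like cells was higher in the young library, by a log2 ratio of 1.998 (1.678–2.336). Within cells with Y-linked UMIs and no *Xist* the ratio was 2.09 (1.61–2.61), and within cells with *Xist* alone it was 1.51 (1.03–2.03). After thinning to 1000 UMIs, 181 of 1672 young ILC2-like cells (10.8%; 9.38–12.4%) and 6 of 399 old ones (0.554–3.24%) had a UMI of it. The part of depth, sex and age in the difference was not tested, and no replicate library could check it.

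ILC2-like cells with *Cpa3* were compared with those without, carriers left out, so no cell with *Cpa3* could have more than 1 other of the 9 genes. *Mcpt8*, *Ms4a2* and *Cma1* had 0 UMIs in the 422 young and in the 32 old cells with *Cpa3*. *Fcer1a* had 6 UMIs in the young ones (2.55 CPM; 0.934–5.54) against 0.903 (0.331–1.97) CPM in those without, and *Cd200r3* 5 UMIs (2.12 CPM; 0.689–4.95) against 8 UMIs (0.520–2.37 CPM), differences not detectable at this depth. *Hdc* had 3.82 (1.75–7.25) CPM in young cells with *Cpa3* and 3.76 (2.43–5.55) in those without. *Gata3*, the transcription factor of ILC2s, had 1008 (968–1049) and 986 (962–1010) CPM. Their *Il4* level was lower than in the 1300 young cells without *Cpa3*, at 4.67 (2.33–8.35) against 14.3 (11.6–17.5) CPM, with median depths of 5453.5 and 4856 UMIs. In the old library it was 4.90 (0.124–27.3) from 1 UMI against 12.1 (7.80–17.8) CPM, a difference not detectable at this depth. *Il13* had 67.5 (57.4–78.8) against 80.1 (73.4–87.2) CPM in the young, and *Areg* 1087 (1046–1130) against 1147 (1121–1173). The cytokine gene *Csf2* was higher in young cells with *Cpa3*, at 283 (261–305) against 245 (234–258) CPM. In the old it was lower, at 103 (63.7–157) against 200 (181–220) CPM. The cytokine gene *Il5* had 33.1 (26.2–41.3) against 40.0 (35.4–45.1) CPM in the young and 39.2 (16.9–77.3) against 23.6 (17.5–31.2) in the old. Old *Il13* had 0 UMIs in the 32 cells with *Cpa3*. Its exact Poisson interval there, given in place of the limit of 3 counts, reached 18.1 CPM. In the old cells without *Cpa3* it had 73.8 (62.6–86.5) CPM, from 153 UMIs in 45 of 380 cells (11.8%). By cells the young library went the other way, with *Il13* in 16.1% of cells with *Cpa3* and 13.7% of those without. With 32 cells and UMIs gathered in few cells, no difference is read.

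*Gata2* outside carriers lay in endothelial-like and other epithelial-like cells. Endothelial-like cells had it at 78.2 (66.7–91.1) young CPM, in 117 of 316 cells with a median depth of 5547.5 UMIs, and 70.0 (36.2–122) old CPM, in 6 of 26 cells. In other epithelial-like cells it had 39.8 (31.1–50.1) and 26.1 (21.9–31.0) CPM. PT-like cells had 0.0175 and 0.0151 CPM, in 0.0325% and 0.0285% of cells. In both libraries the endothelial-like interval, wide in the old one, lay above that of the pooled epithelial-like class, but not above that of its cluster 26, where *Gata2* had 111 (84.5–144) CPM young and 121 (101–144) old. Without integration of the libraries, the young value in other epithelial-like cells was 51.0 CPM.

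Most of the epithelial UMIs came from cluster 26, whose leading genes included *Upk1b*, *Upk2* and *Psca* of the urinary tract lining; *Upk1b* was in 35 of 35 young and 41 of 45 old cells. *Gata2* was in 21 of these young cells and 38 of these old cells, and *Cd200r3* in 11 and 22. Both were found together in 8 and 20 cells. *Mcpt8*, *Cpa3*, *Ms4a2*, *Fcer1a* and *Il4* had 0 UMIs there in either library, so the pair occurred without the other genes of carriers. *Cd200r3* had 7.73 (4.23–13.0) and 9.56 (7.07–12.6) CPM in other epithelial-like cells as a class, against 1.44 (0.769–2.47) CPM in young ILC2-like cells, and 0 UMIs in PT-like cells of both libraries.

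*Ms4a2* outside carriers was found almost only in other epithelial-like cluster 18. That cluster had markers of the loop of Henle (*Slc12a1* in 34 of 89 young and 65 of 194 old cells) and of the distal convoluted tubule (*Slc12a3* in 9 and 96). Of its cells, 7 young ones had 12 UMIs of *Ms4a2* and 2 old ones 4 UMIs, and a young endothelial-like cell had 1 UMI. *Fcer1a* had 12 UMIs in 11 young ILC2-like cells and 1 UMI each in a T-like and a macrophage or monocyte-like cell, and in the old library 1 UMI in an ILC2-like cell. *Mcpt8* had 1 UMI in 1 young cell of an unnamed cluster and 8 UMIs in 4 old cells, 5 of them in the cell of cluster 17. Of *Mcpt1* and *Mcpt2*, 2 and 1 old UMIs lay outside carriers, and of *Tpsab1*, 2 young UMIs in PT-like cells.

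Since several of the genes were found in the same cells, their promoters were read from RefSeq (build GRCm38.p6) for a match to GATAA or its reverse complement TTATC, letters that GATA factors bind, in the 250 bases before the start that RefSeq gives. That start lies inside the GENCODE gene for *Mcpt8*, so part of its window does too. Of the 9 genes, 7 had an entry, and *Mcpt2* and *Tpsab1* had none. A match was present in 5, namely *Cpa3* (1), *Ms4a2* (3), *Fcer1a* (1), *Cd200r3* (2) and *Mcpt1* (1), and in 22.6% of the 32851 promoters searched. *Mcpt8* and *Gata2* held none in this window. Shown, 5′ to 3′ with matches in capitals, are *Mcpt8* as the gene that names the largest subgroup of carriers (chr14:56085198-56085447, minus strand), *Cpa3* as the most widespread (chr3:20242182-20242431, minus strand), *Ms4a2* with the most matches (chr19:11623720-11623969, minus strand) and *Cd200r3* (chr16:44943428-44943677, plus strand).
Mcpt8: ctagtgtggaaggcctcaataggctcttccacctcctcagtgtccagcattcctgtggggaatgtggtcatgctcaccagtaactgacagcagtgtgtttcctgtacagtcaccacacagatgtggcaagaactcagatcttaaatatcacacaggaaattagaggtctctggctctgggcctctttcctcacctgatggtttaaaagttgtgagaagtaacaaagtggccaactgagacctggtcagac
Cpa3: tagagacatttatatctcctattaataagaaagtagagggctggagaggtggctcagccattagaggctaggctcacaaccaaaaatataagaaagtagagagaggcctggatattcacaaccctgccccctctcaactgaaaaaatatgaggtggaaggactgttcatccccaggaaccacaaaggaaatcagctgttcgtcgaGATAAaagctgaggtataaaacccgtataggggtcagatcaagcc
Ms4a2: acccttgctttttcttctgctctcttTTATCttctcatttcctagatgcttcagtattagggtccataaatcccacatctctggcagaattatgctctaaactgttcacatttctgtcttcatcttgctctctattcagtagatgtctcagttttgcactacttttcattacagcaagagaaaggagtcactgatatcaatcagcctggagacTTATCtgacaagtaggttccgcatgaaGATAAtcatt
Cd200r3: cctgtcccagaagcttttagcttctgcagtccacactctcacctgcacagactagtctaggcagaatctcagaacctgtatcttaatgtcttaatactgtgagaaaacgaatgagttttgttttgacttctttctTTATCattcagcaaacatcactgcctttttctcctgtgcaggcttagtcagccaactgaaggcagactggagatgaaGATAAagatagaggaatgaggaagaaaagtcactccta

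The number of carriers limits these values. With 22 and 12 cells, 1 cell could decide a level, as shown for *Mcpt1*, *Mcpt2*, *Tpsab1* and old *Il4*. The cells came from pooled kidneys of 1 library per age after enrichment for ILCs, so the carriers' share is no share of the kidney. Cells of 1 library are not replicates, and no statement on age can be drawn from the contrast of the libraries.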

How the data were processed

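The deposited matrices hold raw UMI counts, which the authors made with Cell Ranger 3 on mm10. The 9 members and all gene lists were chosen with earlier results of these data known. A barcode with fewer than 200 genes or over 20% mitochondrial UMIs was removed, 3647 young and 2390 old ones in all. A carrier cell has UMIs of at least 3 members. CPM sums, exact intervals (SciPy 1.17.1) and thinning to 1000 UMIs were computed in Python 3.11.15 with NumPy 2.4.6 and pandas 2.3.3. Figures were drawn with Matplotlib 3.10.9. No test was run, since each age has 1 library.

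Cells were clustered in Seurat 5.3.0 (R 4.3.3): log-normalization to 10000 UMIs, 2000 variable genes, integration over 20 dimensions, 10 principal components and a resolution of 0.8. The members and *Il4* were left out of the features, of which 1993 were used. Clusters were named "X-like" from marker lists, with the rule made once the clusters had been seen. Clusters with few UMIs, or with leading genes of another class or lineage than the best-fitting list, stayed unnamed. Doublets were scored with Scrublet in Scanpy 1.11.5 and kept.

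For the fold, CPM of carriers was divided by that of all other kept cells of the library for genes with at least 10 UMIs, with 0.5 UMIs added to each sum and a log2 ratio of at least 2 required. The fold step was checked on simulated data. The genes named are the members and *Il4*, up to 6 genes of each list past the fold in both libraries by their lower ratio, 7 genes taken whatever their values (*Il13*, *Il6*, *Areg*, *Hdc*, *Prss34*, *Kit*, *Il3ra*), and the 10 genes outside these 5 lists most like the members. Other genes were named after their values were seen, as were the subgroup rule and the minimum of 4 carrier UMIs chosen. The alternatives varied the carrier threshold, the cell filter, depth, scaling, the fold settings and the clustering.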

Additional observations from a re-analysis of the deposited data

Results flagged for a closer look

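Barcodes that the cell filter removed, which no comparison uses, held 62 UMIs of the 9 genes in the young library and 22 in the old, above the 3 counts that a total of 0 would allow. In the young library *Cpa3* gave 26 of them in 10 barcodes, *Gata2* 19 in 11 and *Mcpt8* 12 in 2. A single removed young barcode had at least 3 of the genes, with 11 UMIs of *Mcpt8* and 7 of *Cpa3* among its 13246, a mitochondrial share of 56.0% and no *Il4*. In the old library *Gata2* gave 21 UMIs in 8 barcodes and *Mcpt2* gave 1. *Il4* had 0 UMIs in the removed barcodes of either library.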

How the results depend on the processing

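Of 171 values under alternatives, 130 stayed within 1.5 times the main count or the main value's 95% interval, and 41 did not. The causes were not tested unless stated. No paired analysis was possible because each age has 1 library.

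With 2 members required, carriers numbered 44 young and 33 old, with *Il4* at 57.5 and 197.5 CPM in them, and the genes past the fold in the old library numbered 2709. Without the carrier with the most *Il4*, the old share was 55.8% and the old level 507 CPM. Without the 2 with the most, shares were 10.5% young and 26.4% old and levels 103.0 and 159.6 CPM. In the *Mcpt8* subgroup alone the old level was 1901 CPM, and without carriers over 20000 UMIs the levels were 245 and 1568 CPM. These last 3 alternatives and the minimum of 4 carrier UMIs were chosen after seeing the data. The mean of each cell's CPM gave 283 young, and abundant genes left out of the total gave 1389 old.

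With genes of at least 30 UMIs, 3045 young and 2934 old genes were past the fold, since fewer were tested. With at least 4 carrier UMIs, 804 and 590 were.

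Without the cell with the most UMIs of a member, *Mcpt8* had 2.11 young and 5.58 old CPM, *Cpa3* 3.03 old, *Fcer1a* 0.470 old, *Mcpt1* 0.0168 old, *Mcpt2* 0 young and 0.00839 old, and *Tpsab1* 0 old.

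Depth limits the share of cells with a UMI. Thinned to 500 UMIs in place of 1000, the shares fell to 0.910% young for *Cpa3*, 0.0437% young for *Ms4a2*, 0.0612% young and 0.0195% old for *Cd200r3*, and 0.219% young and 0.0880% old for *Gata2*. Thinned to 2000 they were 2.92% young and 0.349% old for *Cpa3*, 0.255% young for *Cd200r3*, and 0.793% young and 0.296% old for *Gata2*.

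With a resolution of 0.4, young *Cpa3* in ILC2-like cells had 124 CPM, and without integration young *Gata2* in other epithelial-like cells had 51.0 CPM. The number of carriers in a neutrophil-like cluster, 18 young and 9 old, was the same in each clustering.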
